A study of Mus musculus with 70 samples.

Results

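The lungs of mice lacking the short isoform of Capicua were set directly against the lungs of mice lacking the long isoform, both at postnatal day 6. The 16 libraries were chosen by their labels alone, 8 of Cic-S-KO and 8 of Cic-L-KO lung, of 70 libraries in the study. The rest of the study comprises 8 WT lung libraries, from littermates of both lines that the submitters pooled, and cortex and cerebellum of the same 3 genotypes at 12 weeks of age. Cic-S-KO is the label for loss of the short isoform (CIC-S) and Cic-L-KO for loss of the long isoform (CIC-L), so that by name each knockout retains the isoform that the other lacks. The labels used here give neither the strain nor the way the alleles were made, nor the sex or litter of an animal, and both alleles are given without a tissue-restricted driver. Whether the 8 libraries of a group are 8 animals is not stated, so the p-values measure the spread between these samples. As the knockouts are separate lines, loss of an isoform cannot be told apart from other differences between the lines, such as background or litter. WT levels are given below as a reference and enter no test unless this is said.

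Capicua is a DNA-binding repressor of the high mobility group box family. It sits on short octamer motifs near genes such as Etv4, Etv5, Maff and the Spry and Dusp genes, together with its partners ATXN1 and ATXN1L, and ERK signalling downstream of receptor tyrosine kinases relieves its repression. The isoforms start from separate promoters and share the DNA-binding region, and the long isoform carries an additional amino-terminal part. At postnatal day 6 the mouse lung is forming alveoli: myofibroblasts lay down elastin and collagen in new septa, type 1 cells spread into the gas exchange surface, type 2 cells make surfactant, and ciliated and club cells line the airways.

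Library totals ranged from 19310684 to 35523037 counts in Cic-S-KO and from 17798655 to 26270280 in Cic-L-KO. Mitochondrial transcripts made up 1.55% to 1.79% and 1.53% to 1.65% of the counts, and haemoglobin transcripts 0.674% to 2.22% and 0.435% to 2.06%. In both knockouts the libraries numbered 1 to 4 carried Y-linked RNA (255 or more in counts scaled to library size, CPM, summed over Ddx3y, Uty, Kdm5d and Eif2s3y) and those numbered 5 to 8 carried Xist, an RNA of the inactive X chromosome (772 CPM or more). Of the first 2 principal components of log2 CPM, which held 28.1% and 17% of the variance, neither alone separated the knockouts. Cic-L-KO replicate 2 stood apart in skeletal muscle RNA: Myh8, a perinatal myosin heavy chain, was at 57.1 CPM there against at most 1.75 CPM in any other of the 16 libraries, and Mylpf at 26.3 CPM. The 7 skeletal muscle markers tested summed to 6.08 to 14.5 CPM in Cic-S-KO and to 8.07 to 119 CPM in Cic-L-KO. Only Actn3 of these passed the test (log2 fold change -0.92), and its call was lost in 12 of 16 fits with 1 library left out, at an adjusted p of 0.106 without Cic-L-KO replicate 2.

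The targeted gene was examined first. Counts are summed over isoforms, so they cannot show the loss of either isoform, and each library keeps the genotype of its label. Total Cic RNA (chromosome 7, 25267704 to 25294159, plus strand, GRCm38) lay between 148 and 183 CPM in the 8 Cic-S-KO libraries (median 175) and between 131 and 149 CPM in the 8 Cic-L-KO libraries (median 133). The WT median was 136 CPM. Cic-L-KO libraries lay close together, and the ranges met at a single pair, the lowest Cic-S-KO and the highest Cic-L-KO library. Cic was higher in Cic-S-KO by a log2 fold change of 0.35 (SE 0.041, adjusted p = 3.51e-05, edgeR quasi-likelihood test with Benjamini-Hochberg adjustment). Atxn1, the gene of the Capicua partner whose expanded form causes a spinocerebellar ataxia, stood at 45.2 to 52.4 CPM (median 47.8) in Cic-S-KO and at 55.0 to 62.0 CPM (median 60.0) in Cic-L-KO, with no overlap. Its log2 fold change was -0.31 (SE 0.041, adjusted p = 0.000124). Atxn1l, the related partner gene, did not pass (log2 fold change -0.13, adjusted p = 0.0599). It lay near the threshold: the adjusted p was 0.0317 with DESeq2, 0.0373 with voom weights and 0.0298 with the replicate number as a block, and it was under 0.05 without Cic-L-KO replicate 3 or Cic-S-KO replicate 4 or 8. Of 16 tested genes of Capicua and its cofactors, a list that also holds the Tle, Hdac, Sin3 and Ncor corepressor genes, Cic was higher and Atxn1 lower. These shares of 6.25% each lay near those of all tested genes, 6.94% higher and 4.98% lower. With the block, 3 members were lower.

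Across the lung transcriptome, 1929 of 16187 tested genes differed between the knockouts at an adjusted p under 0.05, which is 11.9% of those tested. Of these, 1123 (6.94%) were higher and 806 (4.98%) lower in Cic-S-KO. Counts of list members below are to be read beside these shares, and all lists were chosen with earlier results of these data known. The differences were asymmetric in size: the called genes that were higher had a median log2 fold change of 0.61 and the lower ones of -0.25, while the median over all tested genes was 0.0080. A log2 fold change of at least 1 was reached by 219 called genes upward and by 18 downward. In 205 genes (1.27%) the 8 libraries of each knockout did not overlap, 92 with Cic-S-KO above (0.568%) and 113 with Cic-S-KO below (0.698%), and all 205 passed the test. The plot of fold change against level shows the longer upward arm. Whether counting used strand is not given in the sources used here, and 35 of 125 genes described with values or calls here overlap a gene on the opposite strand, Atxn1, Sfrp2, Adamts9, Pla2g4c, Rsph1, Hopx, Igf1, Egfr and Cdc20 among them. For those 35, reads from the shared stretch cannot be told apart if counting ignored strand. Overlap was judged on whole gene spans, introns included, so the exons need not overlap.

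**Figure D1:**
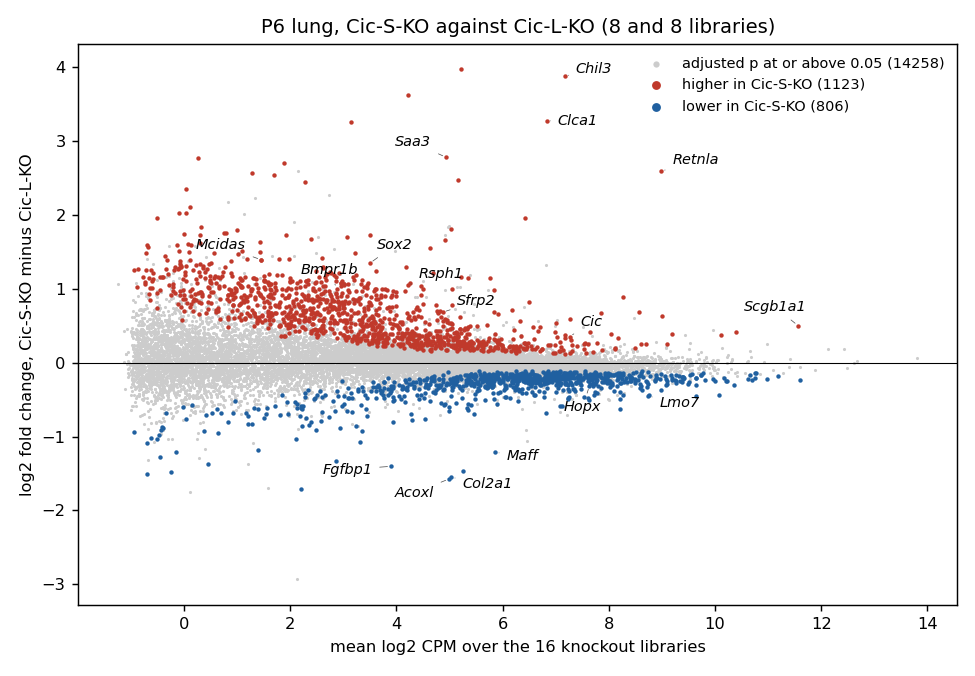
Log2 fold change (Cic-S-KO minus Cic-L-KO) of each of 16187 tested genes against its mean log2 CPM over the 16 libraries, with the 1123 genes called higher in red and the 806 called lower in blue. Red points reach higher absolute values than blue ones, and some of the genes named in the text are labelled.

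The clearest separations between the knockouts were genes that stood high in Cic-L-KO. Col2a1, the fibrillar collagen of cartilage (chromosome 15, 97975602 to 98004695), had the smallest p of all genes: it ranged from 11.8 to 22.8 CPM (median 15.8) in Cic-S-KO and from 43.5 to 53.4 CPM (median 49.6) in Cic-L-KO. Every Cic-L-KO library held more Col2a1 RNA than any Cic-S-KO library, and the WT libraries, at 3.99 to 7.77 CPM, lay below both. Its log2 fold change was -1.55 (SE 0.099, adjusted p = 2.22e-08), which is a level 2.93-fold higher in Cic-L-KO. Of 14 chondrocyte markers tested, Col2a1 and Sox5 were lower and Col11a1 higher in Cic-S-KO, the other 11 did not pass, and the list median was -0.048. Sox5 lost its call without Cic-L-KO replicate 2, 6 or 8 or Cic-S-KO replicate 3, 6 or 7. Col11a1 lost it in 11 of 16 fits with 1 library left out (without Cic-L-KO replicate 1, 4, 5, 6 or 7 or Cic-S-KO replicate 1, 2, 4, 5, 7 or 8), and its adjusted p was 0.0510 with RLE scaling and 0.0511 without robust estimation. Another 7 listed cartilage markers, Acan, Comp and Matn1 among them, were not tested.

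Fgfbp1, a secreted carrier that frees fibroblast growth factors from the matrix (chromosome 5, 43978858 to 43981779), stood at 5.57 to 9.23 CPM in Cic-S-KO (median 8.60) and at 17.3 to 27.1 CPM in Cic-L-KO (median 21.5). The groups were apart in every library, with a log2 fold change of -1.40 (SE 0.10, adjusted p = 8.13e-08). Acoxl, which encodes an acyl-CoA oxidase-like protein, stood at 12.4 to 25.8 CPM (median 14.3) against 38.9 to 58.2 CPM (median 45.7), and here the WT median of 26.3 CPM lay between the knockouts. Its log2 fold change was -1.57 (adjusted p = 5.70e-06). Slc17a2, a member of the sodium-phosphate cotransporter family, had medians of 19.4 and 52.9 CPM (log2 fold change -1.47, adjusted p = 6.41e-06). Frat1, a GSK3-binding activator of WNT signalling, had medians of 6.16 and 13.8 CPM (-1.07, adjusted p = 5.70e-06). Zfp365 (-0.77), the secreted matrix protease gene Adamts9 (-0.59) and Lmo7 (-0.45), an actin-binding junction protein enriched in alveolar type 1 cells, completed the 8 genes that were lower in Cic-S-KO among the 10 with the smallest p. In all 8 the libraries of the groups did not overlap.

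The remaining 2 of those 10 were higher in Cic-S-KO, again without overlap. Sfrp2, a secreted WNT-binding protein, ranged from 30.0 to 40.9 CPM (median 36.3) in Cic-S-KO and from 18.7 to 27.4 CPM (median 22.2) in Cic-L-KO. The difference was 0.68 on the log2 scale (SE 0.071, adjusted p = 9.82e-06). Bmpr1b, a type I receptor for bone morphogenetic proteins, ranged from 8.19 to 12.1 CPM (median 9.08) and from 3.88 to 5.61 CPM (median 4.83), a log2 fold change of 1.00 (SE 0.11, adjusted p = 1.32e-05). The plot of single libraries shows these patterns beside genes that vary within a group. Among other genes with large decreases were Dab1, an adaptor of reelin signalling (-1.33, adjusted p = 9.81e-05, no overlap), the non-coding Gm33489 (-1.03, adjusted p = 0.000354, no overlap) and the hyaluronan synthase gene Has1 (-1.19, adjusted p = 0.00578). Nr4a3, an immediate early nuclear receptor, had the largest decrease among called genes whose mean log2 CPM reached 1 (-1.71), but it ranged from 2.43 to 20.5 CPM within Cic-L-KO, and its adjusted p of 0.0458 was 0.05 or above in 11 of 16 fits with 1 library left out, and highest at 0.0924 without Cic-L-KO replicate 7.

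**Figure D2:**
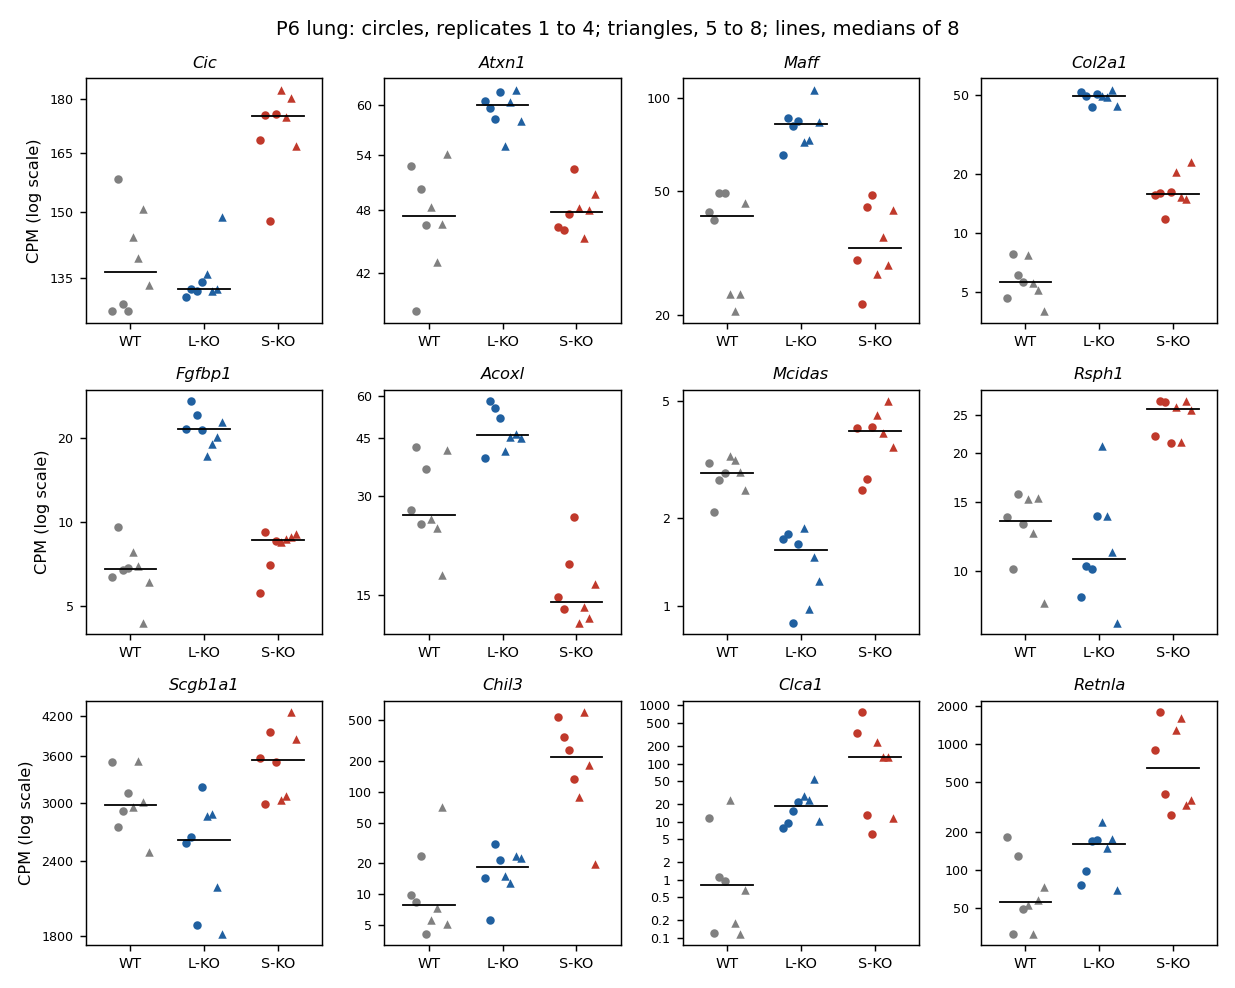
CPM of 12 genes in each lung library on log axes, for WT, Cic-L-KO (L-KO) and Cic-S-KO (S-KO), with circles for replicates 1 to 4, triangles for replicates 5 to 8 and lines at the medians. Maff, Col2a1, Fgfbp1 and Acoxl separate the knockouts in every library, whereas Clca1 runs from 6.02 to 776 CPM within Cic-S-KO.

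Among genes described as Capicua targets, Maff and Dusp4 were lower and Etv4 was higher in Cic-S-KO. Of 18 tested, that is 5.56% higher and 11.1% lower, against 6.94% and 4.98% of all genes, while 15 did not pass and the median log2 fold change was -0.13. Maff, a small MAF transcription factor (chromosome 15, 79346621 to 79359076), was at 21.7 to 48.6 CPM in Cic-S-KO (median 32.8) and at 65.2 to 106 CPM in Cic-L-KO (median 82.4). Cic-L-KO libraries were all above those of Cic-S-KO, whose range met that of WT (20.5 to 49.4 CPM), and the log2 fold change was -1.21 (SE 0.15, adjusted p = 0.000246). Dusp4, a nuclear MAP kinase phosphatase, had medians of 23.6 and 34.0 CPM with no overlap (-0.54, adjusted p = 0.000169). Etv4, an ETS factor, went the other way, with medians of 43.1 CPM in Cic-S-KO and 36.4 CPM in Cic-L-KO (0.34, SE 0.085, adjusted p = 0.0121), both above the WT median of 25.03 CPM. Among 18 tested feedback inhibitors of ERK signalling (Spry, Spred, Dusp and Rasa genes and Nf1), Dusp4 alone passed. That is 5.56% lower, near the 4.98% of all genes, and 3 were lower without Cic-S-KO replicate 4. Those with the highest levels, Spred1 and Dusp6, had log2 fold changes of 0.048 (SE 0.045) and 0.016 (SE 0.18).

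The octamers TGAATGAA and TGAATGGA, at which Capicua is known to bind, were searched on both strands of the 300-base RefSeq promoter windows (GRCm38.p6, 250 bases before to 50 after a start). They were found for 219 of the 11446 tested genes that had a window (1.91%). Only 70.7% of the tested genes had one, so a comparison of called and other genes by motif is void. A window was present for 177 of the 240 named genes, but not all of these windows were searched. Octamers near other named genes may therefore have been missed. Alb, which did not differ between the knockouts (adjusted p = 0.552), held TGAATGGA. Whether named genes held an octamer more often than the 1.91% above was not tested. Among the named genes that differed between the knockouts and had a window searched, Maff, Psat1 and Pla2g4c held an octamer, all TGAATGAA. These 3 stretches are shown because each holds the octamer near the start of a gene that differed, with the octamer in capitals, read 5′ to 3′ along the gene's strand.
Maff, chr15:79347478-79347537, plus strand: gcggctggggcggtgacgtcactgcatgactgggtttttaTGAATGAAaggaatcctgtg
Psat1, chr19:15924623-15924682, minus strand: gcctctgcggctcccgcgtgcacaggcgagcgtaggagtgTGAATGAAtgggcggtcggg
Pla2g4c, chr7:13325484-13325543, plus strand, octamer on the other strand: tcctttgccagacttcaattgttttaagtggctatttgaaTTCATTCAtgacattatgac
Counted from the RefSeq start on which each window was placed, which for Maff lies inside the GENCODE gene given above, the octamer begins 2 bases before it in Maff, in Psat1 20 bases before it and in Pla2g4c 143 bases before it. Psat1, an enzyme of serine synthesis, was lower in Cic-S-KO without overlap (-0.44, adjusted p = 0.000745), and Pla2g4c, a cytosolic phospholipase, was 6.5-fold higher (adjusted p = 0.00711). The matches describe these letters and do not show binding.

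Most ciliated cell markers and 5 of 10 club cell markers were higher in Cic-S-KO. Of 15 tested markers of ciliated cells, 14 were higher in Cic-S-KO, none was lower, and the median log2 fold change was 0.96 against 0.0080 over all tested genes. Mcidas, a coregulator that starts the multiciliated program, ranged from 2.48 to 5.02 CPM (median 3.97) in Cic-S-KO and from 0.881 to 1.86 CPM (median 1.56) in Cic-L-KO, without overlap (a log2 difference of 1.39, SE 0.18, adjusted p = 9.96e-05). Rsph1, a radial spoke protein of motile cilia, ranged from 21.1 to 27.1 CPM and from 7.38 to 20.8 CPM (1.05, adjusted p = 0.000687), also without overlap. The WT medians of 2.85 CPM for Mcidas and 13.4 CPM for Rsph1 lay between those of the knockouts. Tekt1 (0.96) and Dynlrb2 (0.99), of the ciliary axoneme and its dynein motors, were also higher. The remaining marker, Tppp3, went the other way and did not pass (-0.21, adjusted p = 0.191). With any 1 library left out, 14 of the 15 were called. In whole lung, more cells of a type and more RNA per cell cannot be told apart, here and for the markers that follow.

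Of 10 tested club cell markers, 5 passed, all higher in Cic-S-KO, with a list median of 0.57. Scgb1a1, the main secretory protein of club cells, stood at 2993 to 4268 CPM (median 3543) in Cic-S-KO and 1813 to 3199 CPM (median 2607) in Cic-L-KO, and the ranges overlapped (0.50, SE 0.12, adjusted p = 0.00968). Gabrp (0.78), Aldh3a1 (0.73) and Aldh1a7 (0.43) also passed. Sox2, the transcription factor of proximal airway epithelium, had medians of 16.6 and 5.55 CPM (1.35, SE 0.25, adjusted p = 0.00252), and Ehf, an epithelial ETS factor, had medians of 33.6 and 21.02 CPM (0.70, adjusted p = 0.00239). None of 5 tested basal cell markers passed. The summed markers overlapped between the groups: the ciliated sum was 416 to 593 CPM in Cic-S-KO and 309 to 525 CPM in Cic-L-KO, and the club sum 4904 to 7331 and 3303 to 5437 CPM. Whether the amount of airway in each dissected piece differed was not tested.

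**Figure D3:**
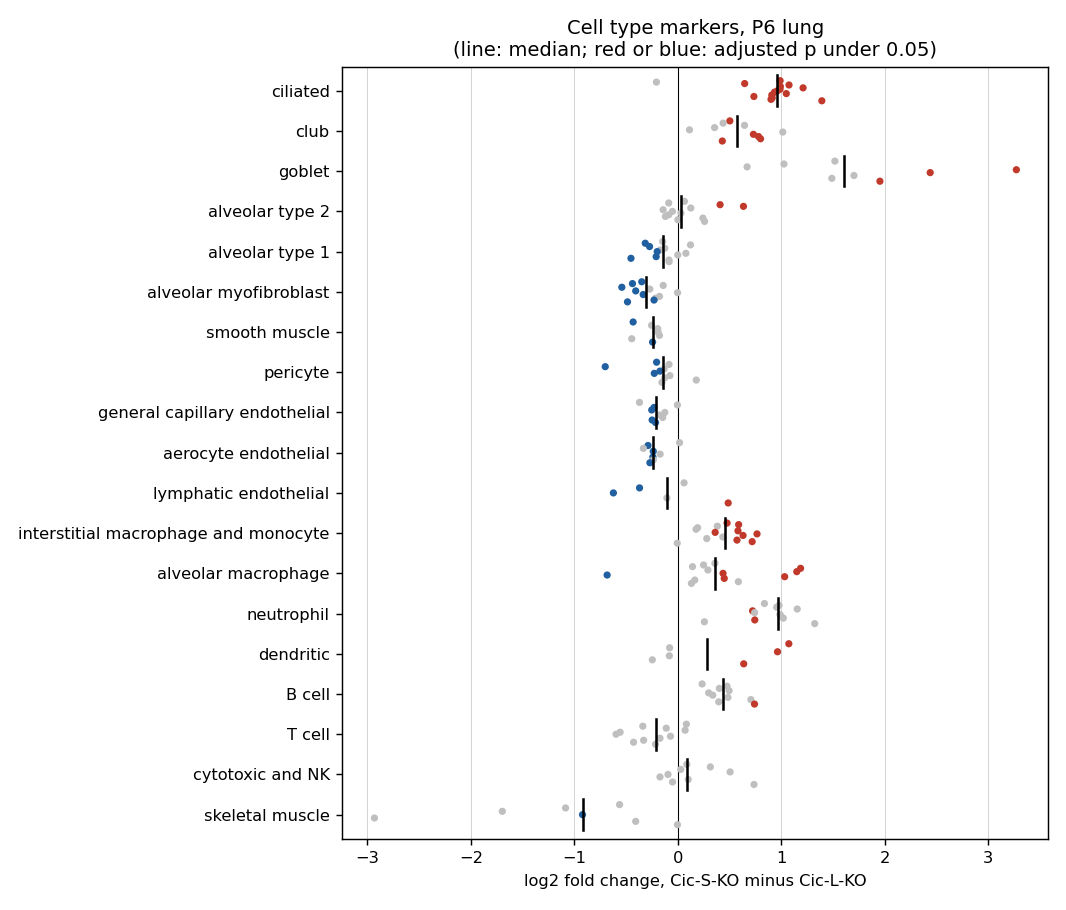
Log2 fold change (Cic-S-KO minus Cic-L-KO) of each tested marker of 19 cell types, red where higher and blue where lower at an adjusted p under 0.05, grey otherwise, with lines at the list medians. Ciliated markers other than Tppp3 lie to the right of 0, with the list median at 0.96. Alveolar myofibroblast markers and most capillary markers lie to the left of 0.

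Genes of type 2 inflammation supplied 7 of the 10 highest fold changes among called genes whose mean log2 CPM reached 1. Of 19 tested genes of the type 2 list, 9 were higher in Cic-S-KO (47.4%, against 6.94% of all genes) and none lower, with a median of 1.49. The members were listed with earlier results of these data known, so neither count is independent of these data. Chil3, a chitinase-like protein of macrophages, ranged from 19.6 to 603 CPM (median 218) in Cic-S-KO and from 5.63 to 31.1 CPM (median 18.4) in Cic-L-KO. In 7 of 8 Cic-S-KO libraries it exceeded every Cic-L-KO library (log2 fold change 3.88, SE 0.60, adjusted p = 0.00123). Its close copy Chil4 had medians of 53.7 and 3.11 CPM (3.97, SE 1.01, adjusted p = 0.0198), and since reads can be shared between the copies, their separate values are uncertain. Retnla, a resistin-like protein induced by interleukin-4 and interleukin-13, ranged from 276 to 1794 CPM (median 647) and from 70.4 to 239 CPM (median 161), without overlap (2.59, SE 0.47, adjusted p = 0.00286). The chemokine genes Ccl24 (2.57) and Ccl17 (1.26) also rose, from medians of 0.586 and 0.620 CPM in Cic-L-KO. The ligand genes Il5, Il13 and Il25 were not tested.

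Within Cic-S-KO these genes differed widely from library to library. Clca1, secreted by goblet cells, was between 6.02 and 13.3 CPM in replicates 3, 4 and 8 and between 131 and 776 CPM in the other 5, against 7.72 to 53.8 CPM in Cic-L-KO and a WT median of 0.799 CPM. Its log2 fold change of 3.27 (SE 0.90) had an adjusted p of 0.0306, which was 0.05 or above in 6 of 16 fits with 1 library left out, at most 0.0636 without Cic-L-KO replicate 8, and 0.166 with voom and sample quality weights. Agr2 (2.44, adjusted p = 0.014) and Bpifb1 (1.95, adjusted p = 0.016) were the other goblet markers that passed, so that 3 of 8 tested were higher and none lower, a count that was 6 without Cic-L-KO replicate 5 and 5 without Cic-S-KO replicate 4 or 8. Slc26a4, the anion exchanger pendrin, had medians of 23.7 and 1.59 CPM (3.62, SE 0.83, adjusted p = 0.0115). Saa3, an acute phase protein, did separate the groups, at 24.9 to 107 CPM against 2.67 to 24.7 CPM (2.78, SE 0.49, adjusted p = 0.00236). Cxcl5 (3.26), a neutrophil chemokine, and Scin (2.54), an actin-severing protein, completed those 10. Their adjusted p of 0.0394 and 0.0373 rose to as much as 0.0912 without Cic-S-KO replicate 6 and to 0.0760 without Cic-L-KO replicate 8, and their calls were lost in 10 and 12 of 16 such fits. With voom weights, Chil4, Slc26a4 and Ccl24 also lost their calls (adjusted p of 0.273, 0.0764 and 0.0891).

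Several macrophage genes were also higher in Cic-S-KO, while no T cell marker passed. Of 14 tested markers of interstitial macrophages and monocytes, 8 were higher in Cic-S-KO and none lower, with a median of 0.46. The count fell to 5 without Cic-L-KO replicate 7 or without Cic-S-KO replicate 5. Ms4a7 (0.77, adjusted p = 0.0015), the monocyte chemokine receptor gene Ccr2 (0.63, adjusted p = 0.00457), the lysosomal marker Cd68 (0.72, adjusted p = 0.00953) and F13a1 (0.57, adjusted p = 0.0125) had the smallest p. Ccr2 ranged from 15.6 to 34.5 CPM (median 24.6) and from 13.4 to 19.5 CPM (median 16.6), with overlap.

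Of 13 tested alveolar macrophage markers, 5 were higher and Cidec was lower in Cic-S-KO, with a median of 0.36, and Cidec lost its call without Cic-L-KO replicate 2 or 4 or Cic-S-KO replicate 5 or 6. Fabp4 (1.19), a lipid carrier, Ctsk (1.15), a lysosomal protease, Atp6v0d2 (1.03), a proton pump subunit, and Plet1 (0.44) were among those that rose. Ctsk was at 40.5 to 109 CPM against 20.3 to 43.9 CPM, with medians of 48.4 and 22.6. The chemokine genes Cxcl13 (1.47, no overlap) and Ccl3 (1.83) were higher as well, and the cytokine gene Lif had medians of 4.02 and 2.38 CPM (0.82, adjusted p = 0.00176). Of 28 tested chemokine ligands, 5 were higher (17.9%) and Ppbp was lower (3.57%), against 6.94% and 4.98% of all genes. The count of lower ones was 2 without Cic-L-KO replicate 5 and 0 without Cic-L-KO replicate 1, 2, 4 or 7 or Cic-S-KO replicate 1, 5, 6 or 8.

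Neutrophil markers had a list median of 0.97, but only Mmp8 and Csf3r of 12 passed. That count was 0 without Cic-L-KO replicate 1, 2, 6, 7 or 8 or Cic-S-KO replicate 3, 4, 5, 6 or 7, and 6 without Cic-S-KO replicate 2. Dendritic cell markers passed in 3 of 6, all higher in Cic-S-KO, Flt3 (0.96) with the smallest p. The other 3 had negative fold changes, and the summed markers had medians of 70.5 CPM in Cic-S-KO and 74.4 CPM in Cic-L-KO. Only 1 of 6 passed without Cic-L-KO replicate 1, 2, 4, 7 or 8 or Cic-S-KO replicate 1, 2 or 6. Of 10 B cell markers, Blk alone passed. That count was 0 without Cic-L-KO replicate 1, 2, 4, 7 or 8 or Cic-S-KO replicate 1, 2, 3, 6, 7 or 8, 2 without Cic-L-KO replicate 3 or Cic-S-KO replicate 4, and 3 without Cic-L-KO replicate 5 or 6. None of 11 T cell markers, 9 cytotoxic cell markers, 32 interferon response genes or 24 genes of antigen presentation passed, with medians of -0.21, 0.087, -0.031 and -0.014. The summed neutrophil markers came to 186 to 697 CPM in Cic-S-KO and 78.6 to 351 CPM in Cic-L-KO, and the summed type 2 genes to 631 to 3556 and 340.1 to 604 CPM.

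In the alveolar epithelium, the called type 1 cell markers were lower and the called type 2 cell markers higher in Cic-S-KO. Of 13 tested type 1 cell markers, 5 were lower in Cic-S-KO and none higher, with a median of -0.15. Hopx, a homeodomain-only factor of type 1 cells, ranged from 161 to 195 CPM (median 175) in Cic-S-KO and from 212 to 237 CPM (median 217) in Cic-L-KO. The groups did not overlap, and the Cic-L-KO median lay above the WT median of 164 CPM (log2 fold change -0.31, SE 0.041, adjusted p = 0.000104). Lmo7 separated them too, at 339.9 to 394 CPM against 437 to 557 CPM. The membrane protein gene Emp2 (-0.21, adjusted p = 0.00131, no overlap) and the water channel gene Aqp5 (-0.27, adjusted p = 0.0042) were lower by smaller amounts. Of 13 type 2 cell markers, 2 were higher and 11 did not pass, with a median of 0.030: the collectins Sftpd (0.63, adjusted p = 0.000816) and Sftpa1 (0.41, adjusted p = 0.00735) rose. Sftpd was at 511 to 812 CPM (median 607) and 322 to 523 CPM (median 391.8). The summed type 1 markers did not overlap, at 6639 to 7296 CPM in Cic-S-KO and 7482 to 8055 CPM in Cic-L-KO, while the type 2 sums did, at 21970 to 28950 and 21060 to 25430 CPM.

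Of the mesenchymal lists, that of alveolar myofibroblasts, the cells that build the septa, held the most markers lower in Cic-S-KO. Of 12 tested markers of alveolar myofibroblasts, 7 were lower and none higher, with a median of -0.30. Tgfbi, a secreted matrix protein, ranged from 689.5 to 1115 CPM (median 893) in Cic-S-KO and from 1165 to 1329.9 CPM (median 1244) in Cic-L-KO, without overlap (-0.44, SE 0.074, adjusted p = 0.000894). Pdgfra, the receptor that marks myofibroblast progenitors, had medians of 213 and 263 CPM (-0.35, adjusted p = 0.00454), Enpp2 had 64.9 and 78.7 CPM (-0.33, no overlap), and Mustn1 had 27.4 and 40.4 CPM (-0.54). The myofibroblast sums overlapped, at 8304 to 11680 CPM in Cic-S-KO and 9371 to 11960 CPM in Cic-L-KO. Of 11 markers of alveolar and lipid-storing fibroblasts, 2 were lower and 9 did not pass (median -0.098). The count of lower ones was 1 without Cic-L-KO replicate 1, 3 or 6 or Cic-S-KO replicate 1, 2, 3, 5, 6, 7 or 8, and 4 without Cic-S-KO replicate 4. Smooth muscle genes were represented by Myh11 (-0.43, adjusted p = 0.00137) and Smtn (-0.24, adjusted p = 0.00818), the 2 of 7 that passed. Of 10 pericyte markers 4 were lower, among them Kcnj8, a potassium channel (-0.70, adjusted p = 0.00263), and the receptor gene Notch3 (-0.23, adjusted p = 0.00734).

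Among 28 tested collagen genes outside cartilage, 14 were lower and 2 higher in Cic-S-KO, with a median of -0.20. Without Cic-L-KO replicate 8, 9 were lower. Col27a1, a fibrillar collagen, ranged from 74.4 to 88.5 CPM (median 80.1) and from 96.1 to 122 CPM (median 105), without overlap (-0.39, SE 0.054, adjusted p = 0.000167). Col5a1 (-0.35) and Col6a2 (-0.29) were lower, and Col6a5 was higher (0.91, adjusted p = 0.00239), from a median of 1.85 CPM in Cic-L-KO to 3.45 CPM in Cic-S-KO. Of 22 elastic fibre genes, 6 were lower (27.3%) and 2 higher (9.09%), against 4.98% and 6.94% of all genes. Ltbp3, a latent TGF-beta binding protein (-0.29, no overlap), the lysyl oxidase gene Loxl3 (-0.33, no overlap) and the fibrillin gene Fbn2 (-0.44) were lower, while Efemp1, fibulin-3, was higher (0.46, adjusted p = 0.000185, no overlap).

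**Figure D4:**
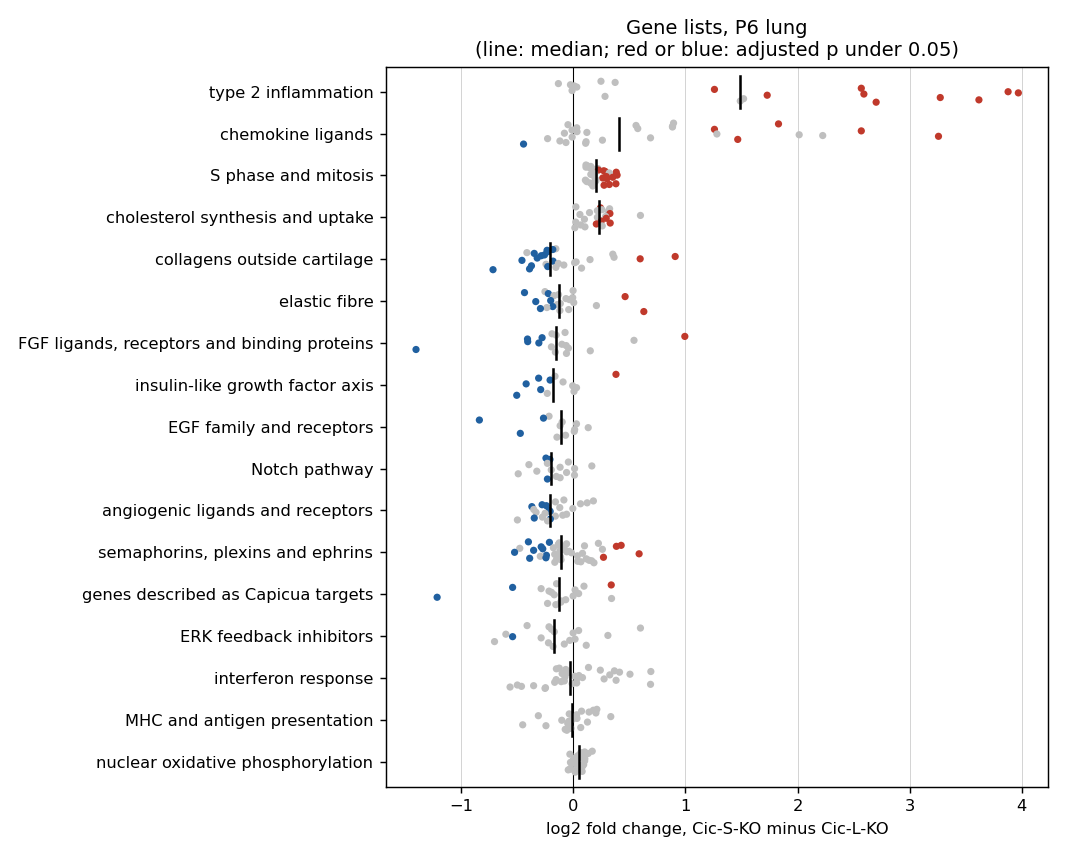
Log2 fold change (Cic-S-KO minus Cic-L-KO) of each tested gene of 17 gene lists, coloured as in the plot of cell type markers, with lines at the list medians. The type 2 list reaches 3.97, cell cycle genes lie in a narrow band above 0, and most collagens lie below 0.

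The capillary markers that passed were lower in Cic-S-KO, while the few that passed among markers of larger vessels and lymphatics went in both directions. Of 8 tested markers of aerocytes, the thin capillary cells of the alveolus, 4 were lower and none higher, with a median of -0.24. Kdr, the main VEGF receptor, ranged from 490.1 to 595 CPM (median 533) in Cic-S-KO and from 578 to 701 CPM (median 639) in Cic-L-KO, with overlap (-0.24, SE 0.049, adjusted p = 0.00299). Tbx2 (-0.24) and Ednrb (-0.29) were the next by p. Of 9 general capillary markers 4 were lower, Tek first (-0.21, adjusted p = 0.0129), and this count was 7 without Cic-L-KO replicate 5, 1 without Cic-L-KO replicate 1 or 8 or Cic-S-KO replicate 6 or 7, and 2 without Cic-L-KO replicate 6 or 7 or Cic-S-KO replicate 2 or 3. Of 8 markers of arteries and veins, none was lower and Dkk2, a secreted WNT inhibitor, was higher (1.15, adjusted p = 0.0092), with a list median of -0.037. Of 5 lymphatic markers, 2 were lower and the T-box gene Tbx1 was higher (0.49, adjusted p = 0.00233), with a median of -0.10. The lower ones were the VEGF receptor gene Flt4 (-0.37, adjusted p = 0.0121) and Lyve1. Lyve1, a hyaluronan receptor of lymphatic vessels, had medians of 233 and 333 CPM (-0.62, adjusted p = 0.00629). Among 23 angiogenic ligands and receptors, 7 were lower and none higher, with a median of -0.21.

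Several growth factor receptors were lower in Cic-S-KO. In the insulin-like growth factor axis, 5 of 12 tested genes were lower and 1 was higher in Cic-S-KO. The receptor gene Igf1r ranged from 174 to 199 CPM (median 185) in Cic-S-KO and from 212 to 247 CPM (median 233) in Cic-L-KO, without overlap (-0.31, SE 0.04, adjusted p = 9.54e-05), and the adaptor gene Irs2 was lower (-0.42). The ligand gene Igf1 went the other way, with medians of 161 and 114 CPM (0.38, adjusted p = 0.0139). In the FGF list, 5 of 17 were lower and 1 higher: beside Fgfbp1, the receptor gene Fgfr1 (-0.31, no overlap) and the ligand gene Fgf18 (-0.41) were lower and the ligand gene Fgf9 higher (0.99, adjusted p = 0.0148). The count of 5 lower genes fell to 3 in the insulin-like list without Cic-L-KO replicate 1, 7 or 8 or Cic-S-KO replicate 1, 2 or 5, and in the FGF list without Cic-L-KO replicate 1, 2 or 4 or Cic-S-KO replicate 1, 3, 6, 7 or 8. Of 12 EGF family genes, Egfr (-0.47, adjusted p = 0.000895, no overlap), Areg (-0.84) and Tgfa were lower, and only 1 of the 3 was called without Cic-L-KO replicate 7 or 8. The adjusted p of Areg was 0.0517 without replicate 8.

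In the WNT list 5 of 38 were lower (13.2%) and 3 higher (7.89%), led by Sfrp2 above, with Notum, a secreted WNT inhibitor, among the lower ones (-0.67, adjusted p = 0.000839). The BMP and TGF-beta list had 5 lower (15.6%) and 2 higher (6.25%) of 32. Over all genes 4.98% were lower and 6.94% higher, so the shares of higher genes in these lists lay near that of all genes. Both counts of 5 were 8 without Cic-S-KO replicate 4. In the Notch list 4 of 17 were lower and none higher, a count that was 2 without Cic-L-KO replicate 8 and 7 without Cic-S-KO replicate 4. Among 43 semaphorins, plexins and ephrins, guidance molecules of vessels and nerves, 9 were lower (20.9%) and 4 higher (9.3%). The higher count was 2 without Cic-L-KO replicate 4, 6 or 8 or Cic-S-KO replicate 2 or 7. Plxna4 ranged from 56.6 to 70.4 CPM against 75.7 to 113 CPM (-0.52, adjusted p = 0.000104), without overlap, and its semaphorin ligand gene Sema3a had medians of 112 and 147 CPM (-0.40). Of 34 transcription factors of lung development, 8 were lower (23.5%), Hopx first, and 3 higher (8.82%), the latter share near that of all genes.

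Of 30 tested genes of S phase and mitosis, 12 were higher in Cic-S-KO by small amounts, none was lower and 18 did not pass, with a list median of 0.20, and the lowest single value was 0.11. Cdc20, an activator of the anaphase-promoting complex, ranged from 62.8 to 83.5 CPM (median 68.4) in Cic-S-KO and from 47.3 to 62.5 CPM (median 55.7) in Cic-L-KO, without overlap (0.32, SE 0.065, adjusted p = 0.00289). Birc5 (0.35), the kinase gene Aurka (0.39) and the cyclin gene Ccnb2 (0.29) followed. Of 15 tested regulators of G1, Cdk6 (-0.28), Ccnd3 (-0.22) and 3 inhibitors (Cdkn1b, Cdkn1c and Cdkn2b) were lower and Cdkn2d was higher. Cdkn1b, Cdkn1c and Cdkn2b lost their calls in 9, 7 and 4 of 16 fits with 1 library left out, and Cdkn1b also with the replicate block. The lower count was 3 without Cic-L-KO replicate 4, 7 or 8 or Cic-S-KO replicate 5, 6, 7 or 8. Of 23 genes of cholesterol synthesis and uptake, 6 were higher and none lower (median 0.23), Mvd with the smallest p (0.33, adjusted p = 0.016), and 3 were higher without Cic-L-KO replicate 1 or 4 or Cic-S-KO replicate 5, 6, 7 or 8. None of 29 nuclear oxidative phosphorylation genes and none of 11 mitochondrially encoded genes passed, with medians of 0.052 and 0.033. Of 24 genes of surfactant lipid synthesis, Fabp5 alone passed.

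The comparison was repeated within the sets of libraries that the Y-linked genes and Xist set apart. With 4 libraries against 4, 313 of 16237 genes (1.93%) were called in replicates 1 to 4 and 460 of 16388 (2.81%) in replicates 5 to 8, and 85 were called in both. The test of whether the knockout difference differed between these sets called 0 of 16187 genes (edgeR, lowest adjusted p 0.965, with 712 genes at an unadjusted p under 0.05). All 1929 genes called over the 16 libraries had the same sign in both sets, which is in part a consequence of having been called on their sum. Col2a1 had log2 fold changes of -1.71 and -1.41 in replicates 1 to 4 and 5 to 8, Maff -1.13 and -1.31, Mcidas 1.16 and 1.61, and Clca1 4.39 and 2.15. Of the 15 ciliated markers, 13 passed in replicates 1 to 4 and 1 passed in replicates 5 to 8. Of the 19 type 2 genes, 2 passed in replicates 1 to 4 and 0 in replicates 5 to 8 (edgeR). Other lists ran the opposite way: of the 30 genes of S phase and mitosis 0 and 5 passed, and of the 23 cholesterol genes 0 and 7. At an unadjusted p under 0.05 the counts in replicates 1 to 4 and 5 to 8 were 14 and 12 for ciliated markers, 9 and 10 for type 2 genes, 4 and 27 for S phase and mitosis and 4 and 11 for cholesterol genes.

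Genes near Cic on chromosome 7 were counted by distance. Within 1 Mb of Cic, 7 of 48 tested genes were called (14.6%), 6 higher and 1 lower in Cic-S-KO. Between 1 and 5 Mb 5.17% were called and between 5 and 10 Mb 7.95%, against 11.9% of all genes. The gene next to Cic on its 3′ side, Pafah1b3, was the only lower one within 1 Mb (-0.28, adjusted p = 0.00857). It had medians of 28.6 CPM in Cic-S-KO and 35.1 CPM in Cic-L-KO, and a WT median of 27.0 CPM. Erf and Gsk3a on the 5′ side did not pass (-0.096 and -0.034).

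The lung contrast was set beside the same contrast in brain. In a fit over 46 knockout libraries, the difference between Cic-S-KO and Cic-L-KO in lung departed from that in cortex for 3691 of 19337 genes (19.1%) and from that in cerebellum for 1822 (9.42%). Of the 2467 genes called in lung in this fit, 722 departed from both with the same sign as their lung difference. Both departures contain the lung difference by which these genes were selected, so the count is not independent of that selection. The same holds for the genes below that were named for a small p in lung. Genes that departed from both with the opposite sign are not in that count. Tissue, age and labelled batch (batch 1 for lung, batch 2 for brain) cannot be told apart here. Cic itself had a log2 fold change of 0.34 in lung, -0.23 in cortex and 0.0072 in cerebellum, and lung differed from both (adjusted p = 7.28e-10 and 0.000242). For Bmpr1b the lung value was 1.00, against -0.11 (cortex) and -0.16 (cerebellum) (adjusted p of the differences 1.31e-09 and 3.53e-09), and Zfp365 was -0.78, 0.065 and 0.064 (1.74e-09 and 1.54e-08). Sfrp2 differed from both as well, with 0.67 in lung against -0.46 and -0.44, as did Lmo7, with -0.46 against 0.029 and -0.0031.

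Col2a1 had -1.56 in lung, 0.15 in the cortex and -0.82 in the cerebellum, a departure from both (adjusted p = 1.95e-09 and 0.00211). Maff and Atxn1 had the same sign in the 3 tissues but a smaller size in lung: the lung value of Maff was -1.22, against -2.48 (cortex) and -2.65 (cerebellum) (adjusted p of the differences 0.000197 and 0.000242), and Atxn1 was -0.31, -1.12 and -0.58 (1.39e-11 and 0.0144). Frat1 was -1.08 in lung and -0.93 in cortex, a difference that did not pass (adjusted p = 0.458), and -0.53 in cerebellum, where it did (adjusted p = 0.00328). Fgfbp1 and Acoxl departed from cortex (adjusted p = 0.00185 and 0.0071) and not at the threshold from cerebellum (0.11 and 0.166). Adamts9 departed only from cerebellum at the threshold (adjusted p = 0.028, against 0.0878 for cortex). For Slc17a2 the brain standard errors were 1.00 and 1.13, and neither difference passed. In all, 104 genes (0.538%) were called in the same direction in the 3 tissues, 84 lower and 20 higher in Cic-S-KO. They are 4.22% of the 2467 genes called in lung in this fit, 2.1% of the 4941 called in cortex and 6.97% of the 1492 called in cerebellum. Maff, Igf1r, Atxn1, Frat1 and Fgfr1 were among those lower in each.

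**Figure D5:**
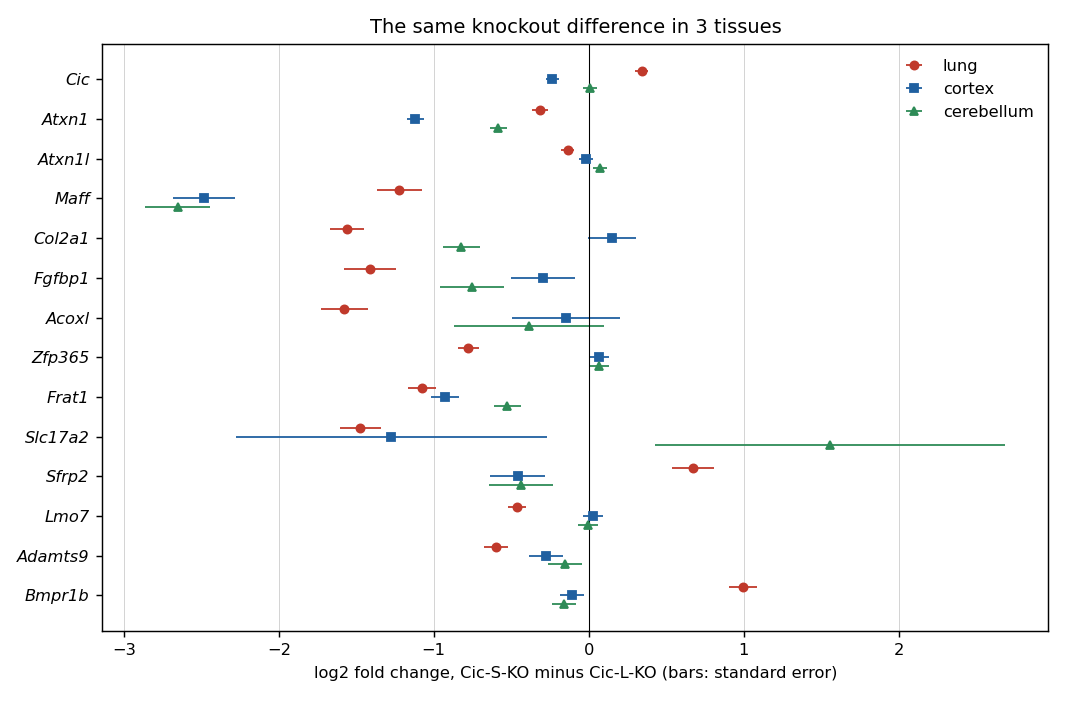
Log2 fold change of Cic-S-KO against Cic-L-KO in lung, cortex and cerebellum for Cic, Atxn1, Atxn1l, Maff and the 10 genes with the smallest p in lung, with standard errors as bars, from 1 fit over 46 libraries. Maff and Frat1 lie to the left of 0 in each tissue, whereas Bmpr1b and Sfrp2 lie to the right of 0 in lung alone.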

How the data were processed

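PolyA-selected RNA libraries were made from flash-frozen tissue, per the labels' protocols. The authors deposited unnormalized read counts as whole numbers for 50789 gene identifiers, and reads were aligned with STAR 2.7 to GRCm38.p6, per the submitters' processing notes. The counting program is not given in the sources used here. Names and positions came from GENCODE M21, which matched 50725 identifiers, and genes of chromosome 1 were not analysed here. Library totals were 17798655 to 35523037 counts over the 16 knockout libraries.

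Groups followed the labels. The 8 Cic-S-KO and 8 Cic-L-KO lung libraries were compared with edgeR 4.0.16 (R 4.3.3) by the robust quasi-likelihood test after TMM scaling and filterByExpr, and Benjamini-Hochberg adjusted p under 0.05 was called. Fold changes are log2, Cic-S-KO minus Cic-L-KO, and SE is the log2 fold change divided by the root of F. CPM is TMM-scaled over the 24 lung libraries. The tissue comparison used 46 knockout libraries in 1 fit. On simulated counts with 50 genes changed per size among 16030, the test called 24%, 60%, 84% and 98% of genes changed by a log2 of 0.25, 0.5, 1 and 2, with 8 false calls.

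Named genes were Cic, Atxn1 and Atxn1l, the 10 genes with the smallest p, the 10 highest and 10 lowest fold changes among called genes whose mean log2 CPM reached 1, up to 4 called members of each list by p, up to 2 members with the highest level where fewer than 2 passed, and the 3 tested genes nearest to Cic on each side. Not every gene that the rule names is reported here, and a few other list members were named after their values were seen. All members and lists were chosen with earlier results of these data known. Alternatives were RLE scaling, DESeq2 1.42.0, no filter or a mean of 50 counts, a test without robust estimation, a log2 fold change of at least 0.5, all 3 lung genotypes or all 9 groups in the fit, a Y-linked covariate, genes within 10 Mb of Cic left out, limma 3.58.1 voom with sample quality weights, GC and length correction, a replicate block, and each library left out. The split into replicates 1 to 4 and 5 to 8 was added after seeing the data.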

Additional observations from a re-analysis of the deposited data

Results flagged for a closer look

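In 37 of 258 checks of 8 libraries, the highest or lowest library stood apart from its nearest neighbour by more than 0.526 of the group's range. That limit gives about 1 in 20 for independent, normally distributed values. Here CPM were not log-transformed, many genes were chosen for their values, and the same libraries recur across genes. The count can therefore not be set against 1 in 20. The total count of Cic-S-KO replicate 5 was 35523037, above the other 7. Cic-L-KO replicate 1 was lowest of its group for Cdkn1c (45.2 CPM) and Fabp5 (63.5 CPM). Cic-L-KO replicate 2 was highest of its group for Mylpf (26.3 CPM), Myh8 (57.1 CPM) and Actn3 (4.15 CPM). Cic-L-KO replicate 3 was highest of its group for Has1 (7.28 CPM). Cic-L-KO replicate 5 was highest of its group for Slc26a4 (12.1 CPM), Cxcl5 (9.18 CPM), Saa3 (24.7 CPM), Tekt1 (10.8 CPM), Gabrp (32.7 CPM), Sox2 (13.4 CPM), Ehf (32.3 CPM), Ctsk (43.9 CPM) and Ccl3 (1.28 CPM). Cic-L-KO replicate 6 was highest of its group for Zfp365 (29.5 CPM) and Flt3 (2.01 CPM). Cic-L-KO replicate 7 was highest of its group for Clca1 (53.8 CPM) and Nr4a3 (20.5 CPM). Cic-L-KO replicate 8 was highest of its group for Cic (149 CPM). Cic-S-KO replicate 1 was highest of its group for Flt3 (4.88 CPM). Cic-S-KO replicate 2 was highest of its group for Chil4 (242 CPM) and Clca1 (776 CPM). Cic-S-KO replicate 3 was lowest of its group for Cic (148 CPM). Cic-S-KO replicate 4 was highest of its group for Acoxl (25.8 CPM), Frat1 (8.61 CPM), Nr4a3 (5.28 CPM) and Tbx2 (685 CPM). Cic-S-KO replicate 4 was lowest of its group for Sox2 (7.98 CPM). Cic-S-KO replicate 6 was highest of its group for Ms4a7 (10.6 CPM), Cd68 (49.8 CPM), Ctsk (109 CPM), Atp6v0d2 (55.8 CPM), Ccl3 (5.83 CPM), Cdc20 (83.5 CPM) and Fabp5 (159.1 CPM). Their part in the comparison was not tested beyond leaving each library out.

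Among 14 named genes, 21 of 28 tests found the knockout difference in lung to differ from that in brain. Of the 14, 10 were chosen for the smallest p of the lung contrast, which enters these tests, so a high count was favoured by the choice. Over all genes the difference was called for 3691 against cortex (19.1%) and 1822 against cerebellum (9.42%). The values below are the log2 knockout difference in lung minus that in brain, from the edgeR fit over 46 libraries, and tissue, age and batch cannot be told apart. Against cortex and cerebellum in that order, the genes were Cic (0.58 and 0.34), Atxn1 (0.80 and 0.27), Maff (1.26 and 1.43), Col2a1 (-1.71 and -0.74), Zfp365 (-0.84 and -0.84), Sfrp2 (1.13 and 1.11), Lmo7 (-0.49 and -0.46) and Bmpr1b (1.11 and 1.16). Against cortex alone they were Fgfbp1 (-1.11) and Acoxl (-1.43), and against cerebellum alone Atxn1l (-0.21), Frat1 (-0.55) and Adamts9 (-0.44).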

How the results depend on the processing

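No called count changed direction under the alternatives run. The total of 1929 called genes lay between 1638 (no low-count filter) and 2508 (DESeq2) under other tools, filters and scalings, and it was 1371 without Cic-L-KO replicate 8 and 2416 without Cic-S-KO replicate 4. The higher genes ranged from 813 without Cic-L-KO replicate 8 to 1308 without Cic-L-KO replicate 5, and the lower ones from 558 without Cic-L-KO replicate 8 to 1146 without Cic-S-KO replicate 4. A minimum log2 difference of 0.5 in either direction left 776 genes, 672 higher and 104 lower, and 1774 and 921 genes in the comparisons of lung with cortex and with cerebellum. Replicates 1 to 4 alone gave 313 genes, 224 higher and 89 lower, and replicates 5 to 8 alone gave 460, 232 higher and 228 lower, with fewer samples in each fit. Without a low-count filter, 1184 genes differed between lung and cerebellum. With libraries left out, the difference from cortex was called for 3340 to 3939 genes and that from cerebellum for 1492 to 2197.

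The labels tie same-numbered libraries by the number alone, while numbers 1 to 4 and 5 to 8 differ in Y-linked RNA and Xist in both knockouts. Deviations from the group means correlated above 0.1 in 6 of 8 such pairs (0.014 to 0.29, mean 0.15), against means of 0.09 for other numbers of the same 4 and -0.11 for numbers of the other 4, and 6 of 16 libraries correlated best with their own number. With the replicate block, 2279 genes were called, 1232 higher and 1047 lower, and 3391 and 1571 in the comparisons with cortex and cerebellum. In brain, the Cic-S-KO numbers in titles and library names differ after the first library, and the block followed the titles. The counts of 3391 and 1571 thus rest in part on pairs whose library names carry unlike numbers. Of the 117 called genes described here, Chil4, Clca1, Cxcl5, Scin, Nr4a3, Scgb1a1, Actn3 and Cdkn1b were not called under the block, and Atxn1l was gained. Of those 117, 100 were called with any 1 library left out, the exceptions being Clca1, Cxcl5, Scin, Nr4a3, Areg, Actn3, Sox5, Col11a1, Blk, Cidec, Ppbp, Mmp8, Csf3r, Tgfa, Cdkn1b, Cdkn1c and Cdkn2b. Small changes can be missed. In counts simulated at the depth and sample number of these libraries, 24% of genes changed by a log2 of 0.25 were called. Only 50 genes per size were changed among 16030, whereas 1929 of 16187 genes were called in the data. The adjusted p depends on how many genes change, so the share found in the data may differ from 24%. Depth was not varied on its own.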
